A study of Mus musculus with 12 samples.

Results

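Fibroblast growth factors (FGFs) are small signaling proteins, most of which are secreted and act on neighboring cells. The paracrine members bind heparan sulfate chains at the cell surface and in the matrix, and together with them occupy FGF receptor tyrosine kinases that signal through ERK. In growing cartilage, Fgf18 and Fgf9 act on FGFR3 to restrain chondrocyte proliferation and maturation, whereas Fgf2 is stored in the pericellular matrix bound to perlecan and is set free when that matrix is cut. The genes described here were a set of 10 chosen by name, with earlier results of these data known: the ligands Fgf1, Fgf2, Fgf5, Fgf7, Fgf9, Fgf10 and Fgf18, the relatives Fgf13 and Fgf14, and Fgfbp1, which encodes a secreted carrier that releases FGFs from the matrix. Fgf13 and Fgf14 belong to the FGF homologous factors, which stay inside the cell and bind sodium channels, so the set is not one of paracrine ligands throughout. All 10 genes had a probe set of their own among the 22180 genes measured this way, and each was represented by the probe set with the highest mean over the arrays. Fgf10 had another probe set, described below.

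Macrodissected cartilage of the sternum, without the xiphoid process, was taken from 6 WT and 6 TIMPless mice aged 4 wk, all of the C57BL/6J strain and untreated, and each mouse was measured on its own Affymetrix Mouse Gene ST array. The TIMPless animals are called QT below. They lack all 4 tissue inhibitors of metalloproteases in the whole body. Their Timp1 gene carries stop codons, the first exon of Timp2 is gone, and the parts of Timp3 and Timp4 that hold the translation start are deleted. Values are log2 intensities after robust multiarray average (RMA), which brings all arrays to 1 distribution, so a change shared by most genes would not be seen. Genotypes were compared by limma's moderated linear model over all 41345 probe sets, with Benjamini-Hochberg adjustment. A gene was counted as higher or lower when its adjusted p was under 0.05, and as called when its fold change was also at least 1.5, which is 0.58 on the log2 scale.

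The arrays had medians of 6.15 to 6.20, which RMA makes alike by its design. Pairwise correlations over all probe sets ran from 0.96 to 0.99. All 4 Timp genes were called lower in QT cartilage. Signal remained, with QT means of 9.16 for Timp1, 9.06 for Timp2 and 9.57 for Timp3, over every array's median. Timp1 overlapped between genotypes, with a lowest WT value of 9.54 and a highest QT value of 9.67. Cartilage markers were bright in every mouse: the mean of 9 chondrocyte genes lay between 11.41 and 11.81 in WT and between 11.15 and 11.57 in QT. The labels give no sex. By Xist (11.91 to 12.22) and the Y-linked gene Eif2s3y (3.50 to 3.99) 10 mice looked female, whereas WT replicates 5 and 6, at 5.17 to 5.34 and 9.06 to 9.20, looked male. Markers of other cell types differed between genotypes. Of 10 skeletal muscle markers 6 were called lower in QT mice, as were 6 of 7 adipocyte and 3 of 7 keratinocyte markers. The 3 keratinocyte genes were Slurp1, Sbsn and Dmkn. Krt1, Krt10, Krt14 and Lor did not pass, and Krt1 and Krt14 lay under every array's median. The means of the muscle, adipocyte and keratinocyte lists did not overlap between WT and QT mice (9.05 to 10.63 and 7.92 to 9.02 for muscle, 8.76 to 9.86 and 7.84 to 8.57 for fat, 6.71 to 7.07 and 6.03 to 6.50 for keratinocyte genes). The mean of 6 osteoblast and osteocyte genes did not overlap either and ran the other way, at 7.58 to 8.66 in WT and 8.69 to 8.99 in QT mice, with 2 of the 6 called higher. The part of these cell types in the results below was not tested. In such bulk RNA, fewer cells of a type and less RNA per cell cannot be told apart.

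Of the 10 FGF genes, 1 was higher in QT cartilage, Fgf2, and 1 was lower, Fgf18. Neither reached the fold threshold, so 0 of the 10 were called; among all 22180 genes 2.30% were called (0.875% higher and 1.43% lower), and 4.93% passed the adjusted p with no minimum fold, 1.69% higher and 3.24% lower. At an unadjusted p under 0.05 there were 3 members, Fgf10 being the third. At 2 of 10 the count of members past the adjusted p is too small to be read against that share. The median log2 difference of the 10 genes was -0.03, and the median of their absolute differences was 0.12, against 0.11 over all genes. For 8 of the 10 the 95% interval of the difference lay within 1.5-fold in both directions; the exceptions were Fgf2 and Fgf18, whose intervals crossed that line. Fgf1, Fgf2, Fgf7 and Fgf18 had means above every array's median in both genotypes. The other 6 lay below every array's median, as did 40.9% of all genes, and are not shown to be above background, so a difference of theirs could be larger than these values show.

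**Figure D1:**
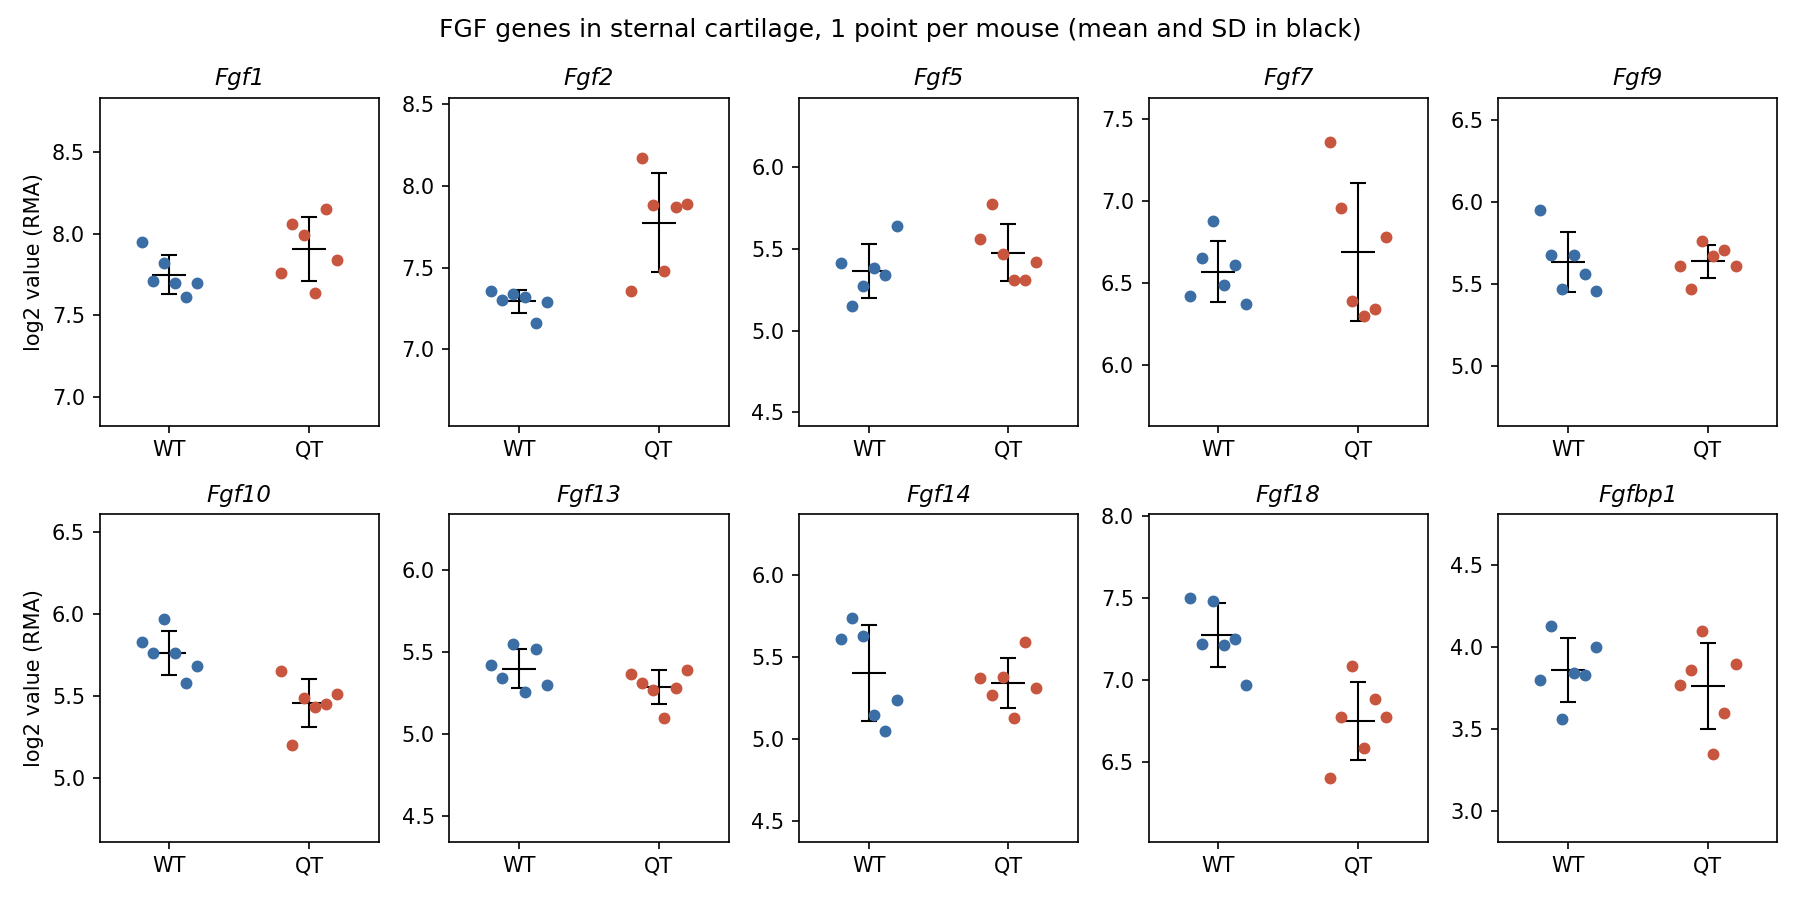
Log2 RMA value (vertical axes, each spanning 2 log2 units around the gene's mean) of the 10 FGF genes in 6 WT and 6 QT mice, with 1 point per mouse and the mean and SD in black. Fgf2 sits higher in 5 of 6 QT mice than in any WT mouse, Fgf18 sits lower in 5 of 6 QT mice than in any WT mouse and the dim gene Fgf10 shows the same order, whereas the other 7 genes overlap more widely.

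Fgf2 (probe set 17397129) encodes the heparin-binding ligand that leaves cells without a signal peptide. Its log2 value in WT replicates 1 to 6 was 7.36, 7.30, 7.34, 7.32, 7.16 and 7.29. In QT replicates 1 to 6 it was 7.36, 8.17, 7.88, 7.48, 7.87 and 7.89. Thus 5 of the 6 QT mice exceeded every WT mouse, QT replicate 1 equaled the highest WT mouse, and QT replicates 1 and 4 stood closer to WT than to the other 4 QT mice. The WT mean was 7.30 ± 0.07 and the QT mean 7.78 ± 0.30 (SD, n = 6 per genotype), a difference of 0.48 (SE 0.12, 95% interval 0.22 to 0.74) or 1.39-fold. Limma's adjusted p was 0.0469, close to the threshold. An exact permutation test over the 12 mice gave p = 0.00433 (2-sided, not adjusted for the number of genes). The smallest that 6 against 6 allow is 0.00216, which every gene without overlap between genotypes reaches, as 4.92% of all genes did. QT mice varied more than WT mice: the ratio of the SDs was 4.22, against a median of 0.97 over all genes, and 0.694% of genes had a ratio at least as large. Without QT replicate 1 or QT replicate 4 the adjusted p fell to 0.0155 and 0.037, whereas without any other single mouse it rose to between 0.0728 and 0.0952, and without WT replicates 5 and 6 together the difference was 0.45 with an adjusted p of 0.147 (limma throughout).

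Fgf18 (probe set 17261542) encodes the ligand that the perichondrium sends to growth plate chondrocytes. Its log2 value in WT replicates 1 to 6 was 7.50, 7.22, 7.48, 7.21, 7.25 and 6.97, and in QT replicates 1 to 6 it was 6.40, 6.77, 7.08, 6.58, 6.88 and 6.77. Only QT replicate 3 lay above the lowest WT mouse, replicate 6, and 5 QT mice lay below all WT mice. The WT mean was 7.27 ± 0.20 and the QT mean 6.75 ± 0.24 (SD, n = 6 per genotype), a difference of -0.53 (SE 0.12, 95% interval -0.78 to -0.27) or 1.44-fold (limma adjusted p = 0.0312, unadjusted exact permutation p = 0.00433). Leaving out WT replicate 6, QT replicate 3 or WT replicates 5 and 6 together brought the difference to -0.59, -0.59 and -0.61, past the fold threshold, with limma adjusted p-values of 0.0225, 0.0173 and 0.037. Without QT replicate 5 the adjusted p was 0.0451, and without any 1 of the other 9 mice it lay between 0.0537 and 0.0734.

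**Figure D2:**
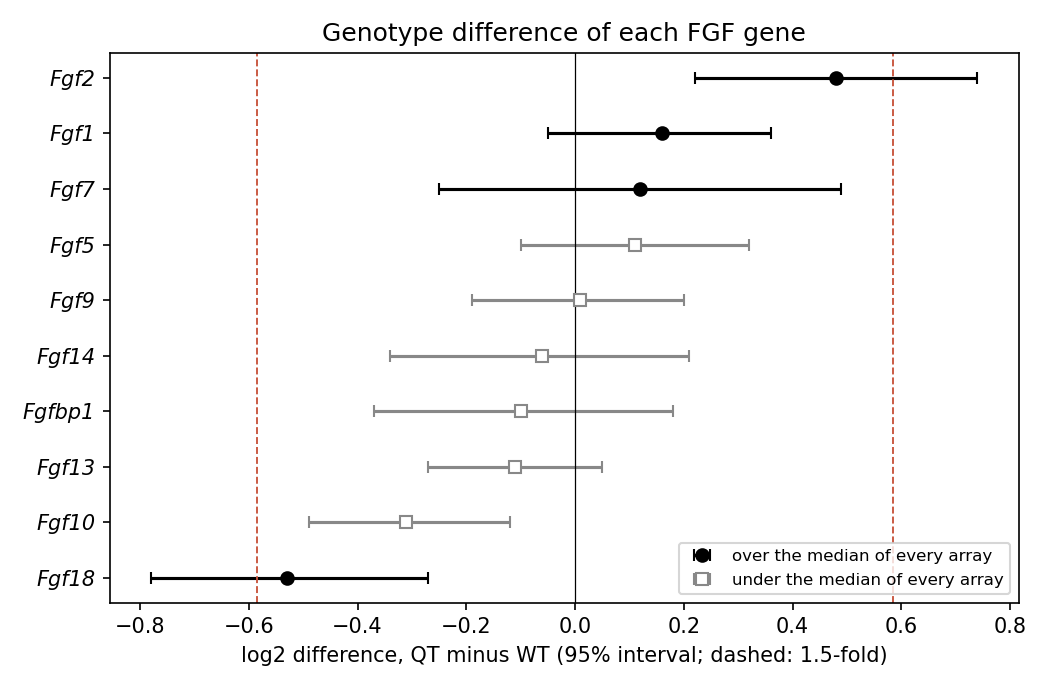
Log2 difference between genotypes (QT minus WT, horizontal axis) of each FGF gene with its 95% interval from limma; dashed lines mark 1.5-fold, filled circles the genes over the median of every array and open squares those under it. Fgf2 at 0.48 and Fgf18 at -0.53 lie at the ends, and the intervals of Fgf2, Fgf10 and Fgf18 leave out 0.

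The stretches ahead of the transcription start of Fgf2 and Fgf18, the members past the adjusted p, are shown for the sequence from which each gene is transcribed; 9 of the 10 members matched in the RefSeq promoter table for GRCm38.p6. Each line gives 250 bases up to the start, 5′ to 3′ on the gene's strand, for Fgf2 chr3:37348403-37348652 (plus strand) and for Fgf18 chr11:33147401-33147650 (minus strand), with capitals marking a GC box.
Fgf2: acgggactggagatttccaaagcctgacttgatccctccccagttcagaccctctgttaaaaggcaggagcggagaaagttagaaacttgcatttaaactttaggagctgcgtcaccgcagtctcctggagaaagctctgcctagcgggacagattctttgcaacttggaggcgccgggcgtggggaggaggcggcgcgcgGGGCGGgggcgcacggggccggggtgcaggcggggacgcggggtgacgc
Fgf18: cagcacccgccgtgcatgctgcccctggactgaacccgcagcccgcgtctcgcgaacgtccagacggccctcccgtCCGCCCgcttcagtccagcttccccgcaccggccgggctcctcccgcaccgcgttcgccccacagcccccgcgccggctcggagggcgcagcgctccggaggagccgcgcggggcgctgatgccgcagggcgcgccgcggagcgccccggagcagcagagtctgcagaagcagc
G and C made up 62.4% of the Fgf2 stretch and 77.2% of the Fgf18 stretch, and 77.5% and 97.4% of all 32851 promoters had a lower share. The GC box GGGCGG, searched on both strands, occurred once in each, as it did at least once in 32.7% of promoters of this length. The TATA box TATAAA, the AP-1 site TGACTCA, the SOX core ACAAT and the RUNX core TGTGGT, on both strands, matched neither stretch; 12.4%, 4.46%, 27.7% and 14.0% of promoters held them. A match is a string of letters and was not examined as a binding site.

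The RefSeq annotation places 2 other genes across Fgf2: the long noncoding gene Fgf2os, whose symbol stands for its opposite strand, and Nudt6, a nudix hydrolase gene. Fgf2os was higher in QT cartilage. Its log2 value was 5.49 to 5.64 in WT mice, whereas QT replicates 1 to 6 had 5.79, 6.29, 5.91, 5.79, 6.14 and 6.08. The genotypes therefore did not overlap, as was the case for 4.92% of all genes. The means were 5.56 ± 0.06 and 6.00 ± 0.20 (SD, n = 6 per genotype), a difference of 0.44 (SE 0.09, limma adjusted p = 0.0181) and under the fold threshold, and both means lay below every array's median. Fgf2os passed without any 1 of the 12 mice, but not without WT replicates 5 and 6 together (limma adjusted p = 0.0598). QT replicate 2 was the highest and QT replicates 1 and 4 the lowest QT mice for both Fgf2 and Fgf2os. Nudt6 had means of 7.39 ± 0.03 and 7.55 ± 0.11 for WT and QT mice (SD, n = 6 per genotype), and its difference of 0.16 did not pass (limma adjusted p = 0.22, unadjusted p = 0.0275). For Nudt6 too, 5 of 6 QT mice exceeded every WT mouse, and the ratio of the SDs was 4.43. Whether the labeling of the RNA kept both strands apart at this locus was not tested.

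**Figure D3:**
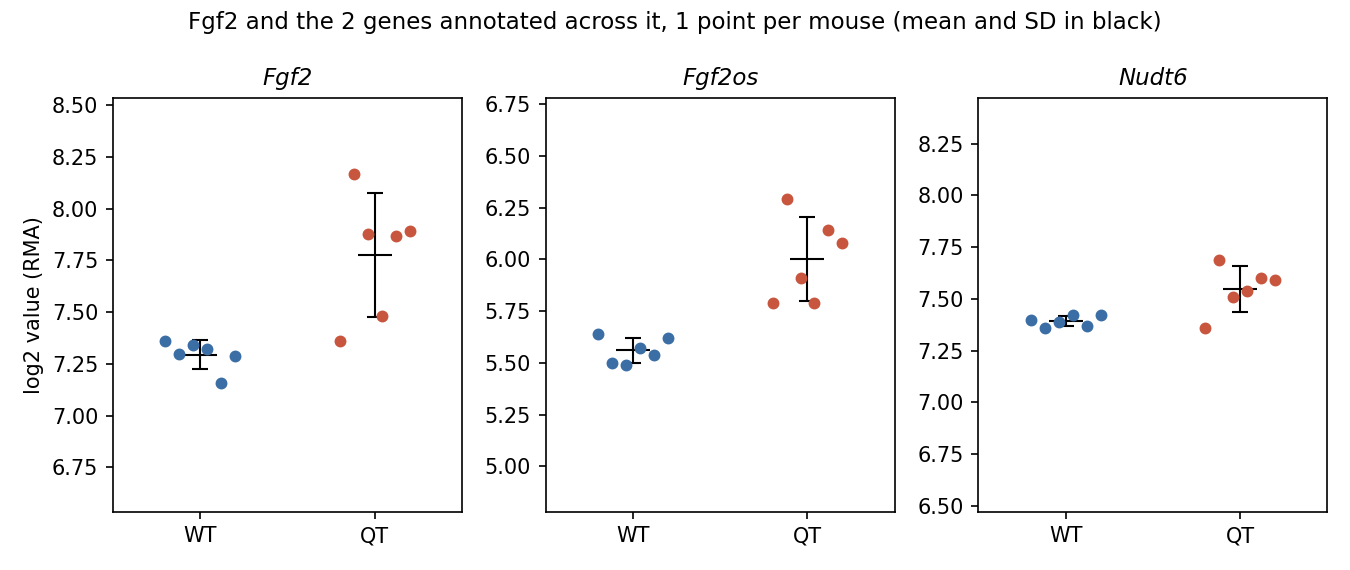
Log2 RMA value (vertical axes, each spanning 2 log2 units) of Fgf2, Fgf2os and Nudt6 in 6 WT and 6 QT mice, 1 point per mouse, mean and SD in black. QT replicate 2 is the highest point in all 3 panels, and Fgf2os, at 5.49 to 5.64 in WT and 5.79 to 6.29 in QT, shows no overlap.

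Fgf1, the ligand that binds all FGF receptors, had log2 values of 7.95, 7.71, 7.82, 7.70, 7.61 and 7.70 in WT replicates 1 to 6. QT replicates 1 to 6 had 7.76, 8.06, 7.99, 7.64, 8.15 and 7.84. Of the QT mice 3 exceeded all WT mice, but the difference of 0.16 (95% interval -0.05 to 0.36) did not pass (limma adjusted p = 0.414). Fgf7, a ligand that connective tissue cells send to epithelia, lay between 6.37 and 6.88 in WT mice. QT replicates 1 to 6 spread more widely, at 7.36, 6.96, 6.39, 6.30, 6.34 and 6.78, with 2 mice above and 2 below all WT mice. Its means of 6.57 ± 0.19 and 6.69 ± 0.42 (SD, n = 6 per genotype) differed by 0.12 (95% interval -0.25 to 0.49; limma adjusted p = 0.769), and without QT replicate 1 by -0.02.

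Fgf10, which mesenchyme uses to signal to epithelial buds, came closest to passing among the 6 dim members. Its brighter probe set (17296483) had 5.58 to 5.97 in WT mice and 5.65, 5.20, 5.49, 5.43, 5.45 and 5.51 in QT replicates 1 to 6, so that 5 QT mice lay below all WT mice. The difference was -0.31 (95% interval -0.49 to -0.12, limma adjusted p = 0.0703, unadjusted exact permutation p = 0.00433). The dimmer probe set of Fgf10 (17290111) differed by -0.11 (95% interval -0.33 to 0.11; limma adjusted p = 0.633), and the mean of both by -0.21 (limma adjusted p = 0.162).

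The remaining 5 members overlapped widely between genotypes, with limma adjusted p-values of 0.467 to 0.985. Fgf9, which shapes the early growth plate, ran from 5.46 to 5.95 (median 5.62) in WT and from 5.47 to 5.76 in QT mice, with a difference of 0.01 (95% interval -0.19 to 0.20). Fgf5, known as a brake on hair growth, ran from 5.15 to 5.64 and from 5.31 to 5.77, a difference of 0.11 (95% interval -0.10 to 0.32). The intracellular factors gave differences of -0.11 for Fgf13 (95% interval -0.27 to 0.05) and -0.06 for Fgf14 (95% interval -0.34 to 0.21). Fgfbp1, the carrier, was the dimmest of the 10, with 3.56 to 4.13 in WT and 3.35 to 4.10 in QT mice, and 10.7% of the probe sets on an average array lay below it. Its difference was -0.10 (95% interval -0.37 to 0.18).

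The spread among mice of 1 genotype was compared between genes. Values were centered on the mean of each genotype, and 54 relations were computed: between Fgf1, Fgf2, Fgf7 and Fgf18, and of each with Fgf2os and with the means of 11 lists of cell type markers. With p-values from 100000 permutations within genotype, 9 had p under 0.05 and 0 passed after Benjamini-Hochberg adjustment. Over the 12 mice Fgf1 and Fgf2 had a Pearson r of 0.74 (permutation p = 0.0225, adjusted p = 0.154) and a Spearman rho of 0.72 (permutation p = 0.0168, adjusted p = 0.184), with r = 0.85 without the 2 mice farthest from the median of Fgf1. Fgf1 and Fgf18 had r = 0.69 (permutation p = 0.0229, adjusted p = 0.154) and rho = 0.68 (permutation p = 0.0266, adjusted p = 0.205), with r = 0.64 without the same 2 mice. For Fgf2 and Fgf18 r was 0.59 (permutation p = 0.0656, adjusted p = 0.267) and rho 0.56 (permutation p = 0.0809, adjusted p = 0.336), with r = 0.57 without QT replicates 1 and 2. Fgf7 had r = -0.14 with Fgf1, -0.16 with Fgf2 and -0.30 with Fgf18 (permutation p = 0.747, 0.706 and 0.409), and rho was 0.09, 0.11 and 0.01 (permutation p = 0.81, 0.764 and 0.987). Fgf2 and Fgf2os had r = 0.86 (permutation p = 0.00858, adjusted p = 0.0951), with r = 0.91 among QT and 0.20 among WT mice alone, and rho was 0.47 (permutation p = 0.146, adjusted p = 0.415), with r = 0.68 without QT replicates 1 and 2.

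Relations with markers of other cells did not pass adjustment either, and the smallest p-values were those of Fgf2 with neutrophil and Fgf18 with keratinocyte genes. Fgf2 ran against the mean of 7 neutrophil lineage genes, which stand for marrow or blood, with r = -0.80 (permutation p = 0.0025, adjusted p = 0.0772), rho = -0.71 (permutation p = 0.0204, adjusted p = 0.184) and r = -0.64 without QT replicates 1 and 2. QT replicates 1 and 4, lowest in Fgf2 among the QT mice, had the highest neutrophil means of all 12 mice, 11.09 and 11.22, and QT replicate 2, highest in Fgf2 of all 12, had the lowest, 8.51. Of the 7 genes 0 passed the adjusted p between genotypes (limma; 2 had an unadjusted p under 0.05), and their mean ran from 8.58 to 10.38 in WT and from 8.51 to 11.22 in QT mice. Fgf18 ran with the keratinocyte gene mean, r = 0.82 (permutation p = 0.00286, adjusted p = 0.0772) and rho = 0.85 (permutation p = 0.00248, adjusted p = 0.067), with r = 0.80 without QT replicates 1 and 3. Fgf1, which did not pass between genotypes, had values of the same signs: r = 0.76 with keratinocyte genes (permutation p = 0.00665, adjusted p = 0.0951; rho = 0.85, permutation p = 0.00232, adjusted p = 0.067; r = 0.61 without WT replicate 1 and QT replicate 5) and r = -0.75 with neutrophil genes (permutation p = 0.00881, adjusted p = 0.0951; rho = -0.72, permutation p = 0.0171, adjusted p = 0.184; r = -0.82 without the same 2 mice). Fgf2 with keratinocyte genes had r = 0.56 (permutation p = 0.0692, adjusted p = 0.267; rho = 0.71, permutation p = 0.0199, adjusted p = 0.184; r = 0.57 without QT replicates 1 and 2), and Fgf18 with neutrophil genes had r = -0.59 (permutation p = 0.0623, adjusted p = 0.267; rho = -0.65, permutation p = 0.0381, adjusted p = 0.257; r = -0.64 without QT replicates 1 and 3). Of the 7 keratinocyte genes Slurp1, Sbsn and Dmkn were called lower. The other 4 did not pass (limma adjusted p = 0.274 to 0.849), with WT and QT means of 5.64 and 5.67 for Krt1, 5.70 and 5.81 for Krt14, 6.12 and 6.26 for Lor, and 6.64 and 6.45 for Krt10. Krt1 and Krt14 lay under every array's median in both genotypes.

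The genes most like each of these members across the 12 mice were read from the genotype-centered values of all other genes. For Fgf2 they were Kifap3, a kinesin adaptor (r = 0.97), Ccdc90b, a mitochondrial coiled-coil protein (r = 0.96), and Syde1 (r = 0.96). For Fgf18 they were Arhgap42 (r = 0.96), Zc3h14, an RNA-binding zinc finger protein (r = 0.95), and Mslnl, a mesothelin-like gene (r = 0.94). Among WT mice alone r with Fgf2 was 0.81 for Kifap3, 0.55 for Ccdc90b and 0.44 for Syde1. Among QT mice alone it was 0.99, 0.99 and 0.98. For the 3 genes like Fgf18 r was 0.91 to 0.95 among WT and 0.95 to 0.98 among QT mice. The 99th percentile over all genes was 0.84 for Fgf2 and 0.79 for Fgf18, so high values were common among the genes of these 12 mice. Why many genes ran with each member was not tested. None of the 6 genes differed between genotypes at the adjusted p, with limma adjusted p-values of 0.343 to 0.902.

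For the rest of the FGF family and the lists after it, counts were not tested against the shares over all genes. Those shares were 1.69% higher and 3.24% lower at the adjusted p, and 2.30% called. Of the other 13 Fgf genes, 9 lay below every array's median, 2 were higher in QT cartilage and 0 were lower. Fgf23, the phosphate hormone of bone cells, was the single one called, at 0.69 with no overlap between genotypes, and lay under all medians (limma adjusted p = 0.00478). The osteocyte markers Dmp1 and Mepe were called higher beside it, with differences of 1.58 and 1.57 and no overlap (limma adjusted p = 0.0181 and 9.1e-04). The other 4 genes of the osteoblast and osteocyte list did not pass (limma adjusted p = 0.303 to 0.98). Their differences were 0.16 for Phex, 0.02 for Bglap, -0.10 for Sp7 and -0.33 for Sost. The part of these cells in the Fgf23 result was not tested. Fgf17 ran from 6.01 to 6.31 in WT and from 6.26 to 6.53 in QT mice, a difference of 0.30 (95% interval 0.14 to 0.45; limma adjusted p = 0.0405), and passed when WT replicate 1 or QT replicate 4 was left out, but with none of the other 10 mice left out (limma adjusted p = 0.0521 to 0.0915) nor without WT replicates 5 and 6 together (0.136).

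Of 7 genes for FGF receptors and coreceptors, 1 was called lower in QT cartilage, Klb, and 0 were higher. Over all genes 1.43% were called lower. Klb, the coreceptor of the endocrine ligands Fgf15 and Fgf21, ran from 6.50 to 7.83 in WT and from 5.77 to 6.49 in QT mice, a difference of -1.09 (limma adjusted p = 0.0122), beside the lower adipocyte markers given above. The receptor with the smallest p among the others, Fgfr1, had means of 10.87 ± 0.10 and 10.54 ± 0.18 for WT and QT mice (SD, n = 6 per genotype), a difference of -0.33 that did not pass (limma adjusted p = 0.0541). Fgfr3, the receptor through which FGFs restrain the growth plate, differed by -0.40 (limma adjusted p = 0.115).

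Genes that hold or release FGFs through heparan sulfate included 4 that differed at the adjusted p, as did 4.93% of all genes. Of 24 measured among 26 listed (Ndst1 and Anos1 had no probe set of their own), 1 was higher and 3 were lower in QT cartilage, and their median log2 difference was 0.03. Both extracellular sulfatases, which take sulfate groups off heparan sulfate, were called, in opposite directions. Sulf1 ran from 9.32 to 9.63 in WT and from 9.67 to 11.02 in QT mice, a difference of 0.85 (SE 0.20, limma adjusted p = 0.0325), and passed when QT replicate 1, 2 or 4 was left out, but with none of the other 9 mice left out (limma adjusted p = 0.0505 to 0.0689) nor without WT replicates 5 and 6 together (0.118). Sulf2 ran from 9.76 to 10.09 in WT and from 8.79 to 9.57 in QT mice, a difference of -0.71 (SE 0.11, limma adjusted p = 0.00493). Hs3st1, a sulfotransferase that completes rare sites on the chains, ran from 6.90 to 7.53 in WT and from 5.91 to 6.44 in QT mice, a difference of -1.12 (SE 0.11, limma adjusted p = 3.0e-04), and its QT mean of 6.13 lay below every array's median. Sulf2 and Hs3st1 passed without any 1 of the 12 mice. The glypican Gpc3 differed by -0.52 with no overlap (limma adjusted p = 0.0344), and passed when WT replicate 2, WT replicate 4 or QT replicate 6 was left out, but with none of the other 9 left out (0.0531 to 0.0731). Perlecan, encoded by Hspg2, had means of 10.83 ± 0.27 and 10.68 ± 0.20 for WT and QT mice (SD, n = 6 per genotype), a difference of -0.16 (95% interval -0.44 to 0.12; limma adjusted p = 0.573).

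Of 17 genes that ERK signaling induces or that feed back on it, 1 was higher and 1 was lower, against 1.69% and 3.24% of all genes. The immediate early gene Ier3 was called higher, from 8.40 to 8.98 in WT to 9.06 to 10.20 in QT mice, a difference of 0.91 (limma adjusted p = 0.0277), but did not pass without WT replicate 1, 2, 3 or 4 or QT replicate 5 or 6 (limma adjusted p = 0.051 to 0.0664). The transcription factor gene Etv1 was lower, with a difference of -0.51 under the fold threshold (limma adjusted p = 0.0233), but did not pass without QT replicate 1, 4 or 6 (0.0505 to 0.055). Dusp6, the ERK phosphatase most often read as a sign of FGF receptor activity, ran from 8.05 to 8.60 in WT and from 8.41 to 9.29 in QT mice, and its difference of 0.52 did not pass (95% interval 0.20 to 0.84; limma adjusted p = 0.0769).

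**Figure D4:**
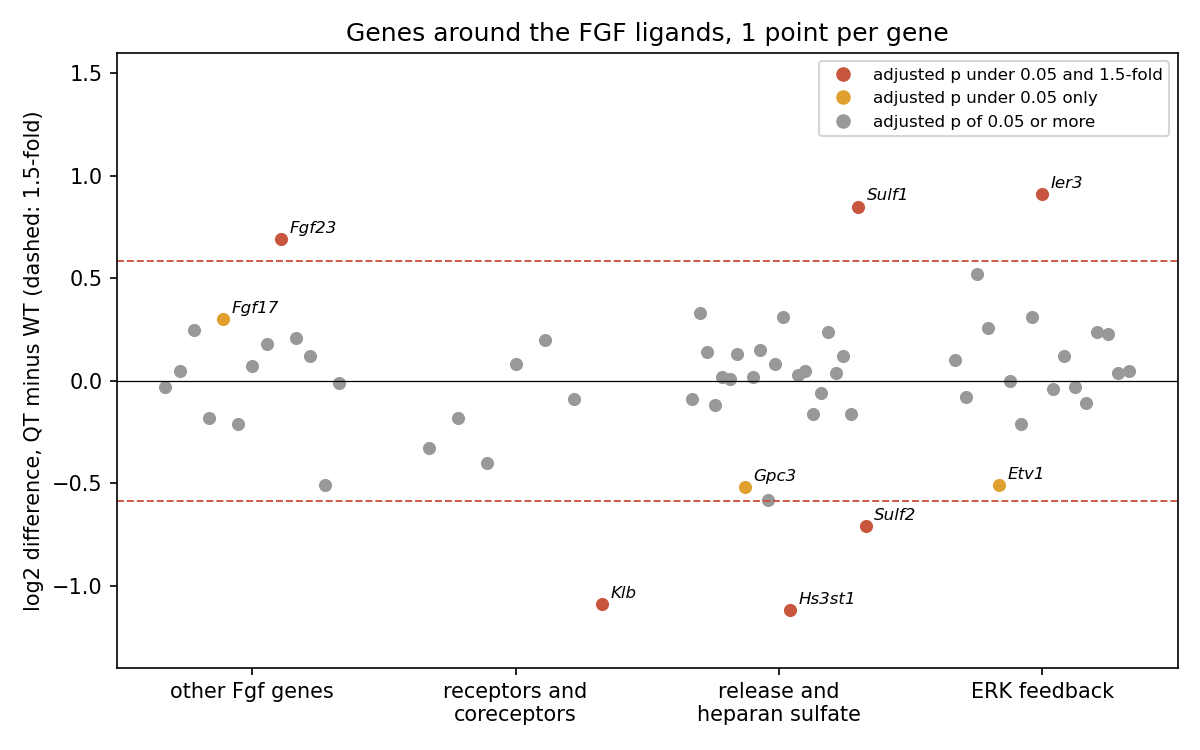
Log2 difference between genotypes (QT minus WT, vertical axis) of 13 other Fgf genes, 7 receptors and coreceptors, 24 heparan sulfate genes and 17 ERK feedback genes, 1 point per gene, with dashed lines at 1.5-fold. The 6 called genes are Fgf23, Sulf1 and Ier3 above 0 and Klb, Sulf2 and Hs3st1 below it.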

How the data were processed

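The deposited log2 values had been made by the authors from the scanner files by RMA (Partek Genomics Suite; the submitters' processing notes name version 6.6), 1 array per mouse, without pooling. No genome build is given in the sources used here. Probe sets were named from the platform annotation, which gave 1 gene for 23521 of 41345, several for 1820 and none for 16004, and 190 are the manufacturer's controls. All were fitted with limma 3.58.1 in R 4.3.3 (lmFit and eBayes, genotype as the only term, 10 residual and 2.93 prior degrees of freedom), the package named in the study's methods, and p-values were adjusted by Benjamini-Hochberg over all probe sets. The fit was tested on simulated data with independent normal noise of the same spread in both genotypes. An unequal spread such as that of Fgf2 was not simulated. Exact permutation tests were 2-sided, and their p-values were not adjusted. Precision depends on the number of mice, since arrays have no depth of reads; the labels call the mice biological replicates.

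The members, the lists and the rule for naming were chosen with earlier results of these data known. Named were all members, the Timp genes, up to 4 called genes of each list with the largest change, or 2 with the smallest p, and the 3 most similar genes of each bright member past the adjusted p. Other genes (Fgf2os, Nudt6, Fgf6, Fgf17, Fgfr1, Fgfr3, Gpc3, Hspg2, Etv1, Dusp6, Krt1, Krt10, Krt14, Lor, Phex, Bglap, Sp7, Sost, Comp and Fmod) were named after their values were seen. The marker lists covered chondrocytes, hypertrophic chondrocytes, muscle, fat, keratinocytes, fibroblasts and tendon, nerve and glia, macrophages, the neutrophil lineage, endothelium, and osteoblasts and osteocytes.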

Additional observations from a re-analysis of the deposited data

Results flagged for a closer look

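Each genotype's 6 values of each of the 10 FGF genes were searched for a mouse far from the rest, by the gap to its neighbor over the whole range, and 1 of the 20 groups held one, as chance alone would give in about 1 of 20. WT replicate 5 had an Fgf2 value of 7.16 against 7.29 to 7.36 in the other 5 WT mice, a gap of 0.65 of the range. It is 1 of the 2 mice that looked male by Xist, and the other, WT replicate 6, had the next lowest value, 7.29, beside 7.30 in WT replicate 2. Any part of sex in these values was not tested. Without WT replicate 5 the Fgf2 difference was 0.45 (limma adjusted p = 0.0863).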

How the results depend on the processing

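With no minimum fold 515 probe sets were higher and 934 lower in QT cartilage, against 246 and 419 called at 1.5-fold, and among the members 1 (Fgf2) was then higher and 1 (Fgf18) lower against 0 and 0, among the other Fgf genes 2 higher against 1, and among the ERK feedback genes 1 lower against 0. Leaving out 1 mouse gave 189 to 244 probe sets higher and 315 to 433 lower, with 0 members called higher and 0 to 1 lower, and leaving out WT replicates 5 and 6 together gave 1 member lower, Fgf18 in each case.

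Replicate numbers did not pair the mice: same-numbered WT and QT mice had correlations of their deviations between -0.21 and -0.01, and no WT mouse correlated best with its own number. With the number as a block 166 probe sets were higher and 257 lower, and Fgf2 and Fgf18 had limma adjusted p-values of 0.127 and 0.0907; Fgf2os (0.0886), Fgf17 (0.18), Klb (0.0648), Gpc3 (0.111), Sulf1 (0.101) and Etv1 (0.124) did not pass either, whereas Fgf23, Sulf2, Hs3st1 and Ier3 did. With the mean of its probe sets Etv1 differed by -0.32 (limma adjusted p = 0.0597).

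Fgf2 passed the adjusted p in 9 of 21 alternatives and Fgf18 in 11 of 21, each in 1 direction throughout. Alternatives such as Storey's q value left the difference as it was, so they could not turn its sign. Fgf10 passed with Storey's q value alone (-0.31, q = 0.0489). Signs turned for members near 0: Fgf9 to -0.06 without WT replicates 5 and 6 and just below 0 (0.00 when rounded) on repeated quantile normalization, and between -0.03 and 0.07 without 1 mouse; Fgf7 to between -0.02 and 0.20, and Fgf14 to between -0.13 and 0.01, without 1 mouse. Leaving out dim probe sets removed the 6 dim members, so that alternative gives no value for them. Signal near background limits what can be said of those 6.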

Other observations

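Fgf7, whose QT values were the most spread of the 10 genes, ran with the mean of 6 macrophage genes over the 12 genotype-centered mice (r = 0.69, permutation p = 0.0139, adjusted p = 0.125 over the 54 relations; rho = 0.54, permutation p = 0.0954, adjusted p = 0.337; r = 0.51 without QT replicates 1 and 4). QT replicate 1 had both the highest Fgf7 value, 7.36, and the highest macrophage mean, 8.90. Of the macrophage, endothelial and neutrophil lineage markers 0 passed the adjusted p between genotypes (limma; at an unadjusted p under 0.05 there were 1, 1 and 2). Among the other marker lists 1 of 9 chondrocyte genes (Comp), 1 of 5 hypertrophic chondrocyte genes (Ihh), 1 of 9 fibroblast and tendon genes (Fmod) and 1 of 6 nerve and glia genes (S100b) were lower in QT mice, and 2 of 6 osteoblast and osteocyte genes (Dmp1 and Mepe) were higher.

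Fgf6, a ligand gene of skeletal muscle, was not a member and had the smallest p among the other Fgf genes that did not pass. It ran from 5.34 to 6.44 in WT and from 5.27 to 5.58 in QT mice, with a difference of -0.51 (limma adjusted p = 0.106), beside the lower muscle markers.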
